A study of Xenopus tropicalis with 18 samples.

Results

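The 40 genes described here were counted in coccyx and not in hypochord late in metamorphosis. They were chosen by their values, from 19921 gene identifiers in the tables of replicates 1 and 2. After the last 37 rows and the 100 other rows of highest mean CPM (counts scaled to library size) were set aside, 19784 rows were left. A member had 10 or more counts in each of the 4 coccyx libraries of stages 61 and 65 (called late here) and 0 counts in each of the 4 late hypochord libraries. This rule took 0.202% of the rows left, and its reverse, 10 or more counts in each late hypochord library and 0 in each late coccyx library, took 0 rows (0%). These shares are not directly comparable, since the tissues differed in depth. The stage 65 hypochord libraries held 2741662 and 1918822 counts, the fewest in replicates 1 and 2. The minimum of 10 counts was met by 6403 rows in late hypochord and by 8351 in late coccyx.

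RNA was measured in wild-type Xenopus tropicalis tadpoles, in coccyx and in hypochord cut from frozen tissue by laser capture. In replicates 1 and 2 each tissue had 1 library at stage 56 (replicate 1), 1 at stage 58 (replicate 2), 2 at stage 61 and 2 at stage 65. A separate set of tables, replicate 3, had 1 library per tissue at stages 56, 61 and 65. No label says whether replicates came from separate animals, so a p-value measures only the spread between these libraries, which may be technical.

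The urostyle is the unsegmented rod of bone at the end of the frog vertebral column. It is formed in metamorphosis by the coccyx, which lies dorsal to the notochord, and the hypochord, a rod of cartilage and later bone ventral to it. Thyroid hormone drives this remodelling while the tail is resorbed. The files pair no identifier with a gene name, and 0 of the identifiers were found in the RefSeq gene table used here. The members are therefore described by level and not by function, the tissue labels could not be set against marker genes, and members are numbered from 1 to 40 by their mean level in late coccyx.

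The libraries of replicates 1 and 2 held 1918822 to 7271829 counts. The coccyx libraries had a count for 13246 to 13919 rows, the late hypochord libraries for 11003 to 11644 and the hypochord libraries of stages 56 and 58 for 7376 and 7508. Levels are CPM scaled by the TMM factor of each library (0.608 to 1.36), and 3 counts, the limit that a count of 0 allows, come to 0.584 to 1.20 CPM in a late hypochord library. In bulk tissue, fewer cells of a type and less RNA per cell cannot be told apart.

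In late coccyx most members lay below the median level of the rows counted throughout late coccyx, and together they made up a small part of each library. Their mean level over the 4 late coccyx libraries ran from 4.04 to 45.5 CPM with a median of 9.81 CPM, against a median of 21.4 CPM for the 8351 rows with 10 or more counts in each late coccyx library. Summed over the members, the coccyx level was 228 CPM at stage 56, 531 CPM at stage 58, 566 and 227 CPM at stage 61 (replicates 1 and 2) and 361 and 657 CPM at stage 65. In hypochord the sum was 0.759 CPM at stage 56, 0.900 CPM at stage 58 and 0 CPM in each late library, as the rule requires. All 6 coccyx libraries thus lay above all 6 hypochord libraries, also in the 2 pairs of stages 56 and 58.

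**Figure D1:**
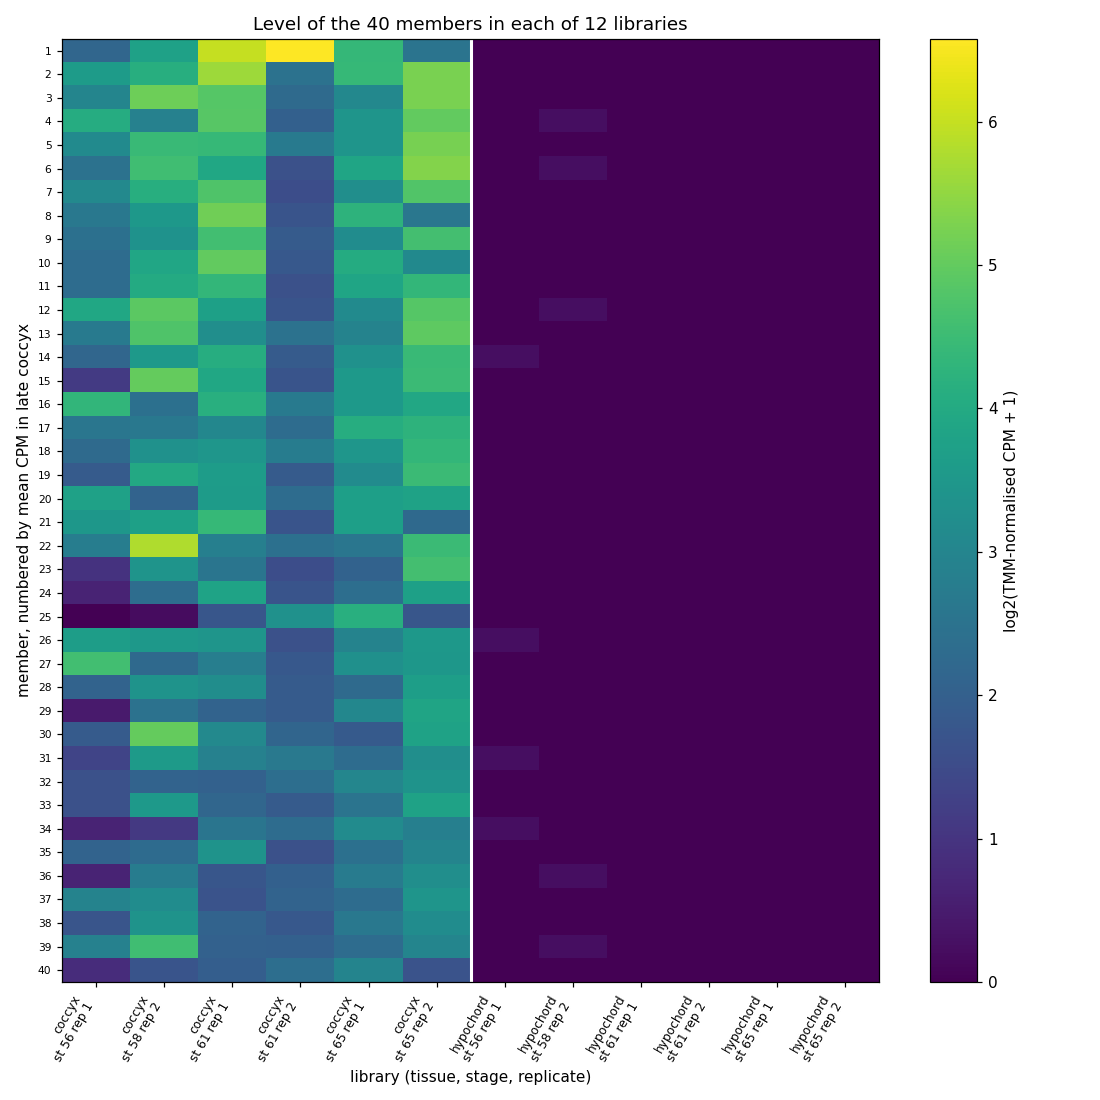
Each row is a member, each column a library of replicates 1 and 2 (6 coccyx libraries left of the white line, 6 hypochord libraries right of it), and colour is log2(TMM-normalised CPM + 1). The right side holds only 9 cells above 0, each of 1 count, in the stage 56 and 58 hypochord libraries, and the stage 61 replicate 2 column is darker than the other late coccyx columns for 32 of the 40 members.

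**Figure D2:**
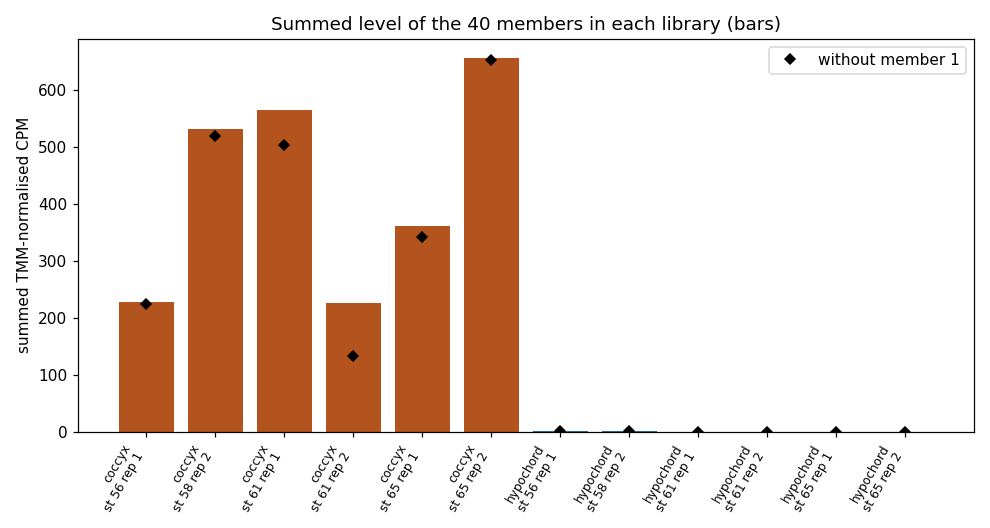
Bars give the summed TMM-normalised CPM of the 40 members in each library, coccyx left and hypochord right, and diamonds give the sum without member 1. Coccyx bars run from 227 to 657 CPM and no hypochord bar exceeds 0.900 CPM; without member 1 the stage 61 replicate 2 coccyx library is at 132 CPM.

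Member 1, ENSXETG00000034240, had the highest mean level of the 40 in late coccyx, 45.5 CPM. In coccyx it had 18 counts at stage 56 (3.46 CPM), 77 at stage 58 (12.6 CPM), 346 and 494 at stage 61 (63.2 and 94.4 CPM) and 98 and 22 at stage 65 (19.7 and 4.82 CPM), against 0 counts in each of the 6 hypochord libraries. Its highest and lowest late coccyx levels differed 19.6-fold, the widest such gap among the members. In the late libraries the rule itself kept the tissues from overlapping. At stages 56 and 58 both coccyx libraries also lay above both hypochord libraries for member 1, as they did for 31.6% of all 19784 rows.

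Member 2, ENSXETG00000030920, had the next highest mean level in late coccyx, 27.4 CPM. In coccyx it had 58 counts at stage 56 (11.2 CPM), 101 at stage 58 (16.5 CPM), 261 and 24 at stage 61 (47.7 and 4.59 CPM) and 100 and 169 at stage 65 (20.1 and 37.1 CPM), against 0 counts in each of the 6 hypochord libraries. Its lowest coccyx level was that of stage 61 replicate 2.

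Members 8 and 10 had their highest level in replicate 1 of stage 61 coccyx. Member 8, ENSXETG00000004192, had 27 counts in coccyx at stage 56, 63 at stage 58, 188 and 12 at stage 61 (34.3 and 2.29 CPM) and 90 and 23 at stage 65 (18.1 and 5.04 CPM). Member 10, ENSXETG00000013830, had 21 counts in coccyx at stage 56, 85 at stage 58, 168 and 13 at stage 61 (30.7 and 2.48 CPM) and 77 and 35 at stage 65 (15.5 and 7.67 CPM). Both had 0 counts in all 6 hypochord libraries.

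The counts bound how much lower the members were in late hypochord. Against a floor of 3 counts over the 4 late hypochord libraries together (0.219 CPM), the pooled coccyx level was at least 18.5-fold higher for member 40, at least 216-fold higher for member 1, and at the median at least 45.2-fold higher. These bounds cover counting error only, carry no test because these values chose the members, and treat PCR copies as independent reads.

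Most genes counted throughout late coccyx were also counted throughout late hypochord. Of the 8351 rows with 10 or more counts in each late coccyx library, 7791 (93.3%) had a count in all 4 late hypochord libraries. Another 301 rows lacked a count in 1 of these libraries, 128 in 2 and 91 in 3, and the members are the 40 that lacked it in all 4 (0.479%). A single late hypochord library missed 2.65% to 3.20% of the 8351 rows.

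Most members lay below 20 CPM in late coccyx, as did many rows with late hypochord counts. Of rows with a mean below 5 CPM in late coccyx, 5 of 626 were members (0.799%), and the median row of this level had 51.5 counts over the 4 late hypochord libraries. From 5 to 10 CPM, 15 of 1517 rows were members (0.989%), and from 10 to 20 CPM, 18 of 1831 (0.983%), where the median row had 185 hypochord counts. From 20 to 50 CPM, 2 of 2303 rows were members (0.0868%), and at 50 CPM or more 0 of 2074.

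**Figure D3:**
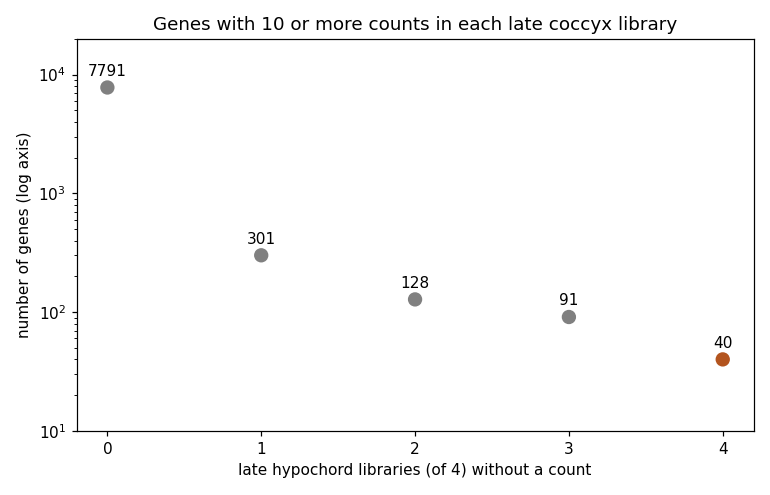
Points give the number of genes (log axis) by how many of the 4 late hypochord libraries held no count for them, among the 8351 genes with 10 or more counts in each late coccyx library. The number is 7791 with a count in every late hypochord library and 40, the members, with none in any.

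On the coccyx side, most rows just outside the rule were lowest in the same library. The lowest late coccyx count of a member was 10 for 3 members and below 15 for 25, and only 1 member had 30 or more in every late coccyx library. Just outside, 7 rows with no late hypochord count had 9 as their lowest late coccyx count. With a lowest count of 5 to 9 there were 64 such rows, and in 47 of them the lowest count was that of stage 61 replicate 2. Just outside on the other side, 30 rows met the coccyx minimum and had a single count over the 4 late hypochord libraries. Their mean late coccyx level ran from 4.16 to 48.5 CPM. The single count lay in stage 61 replicate 1 for 8 of them, in stage 61 replicate 2 for 10, in stage 65 replicate 1 for 4 and in stage 65 replicate 2 for 8.

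Among themselves, the members varied widely between the late coccyx libraries, and most were lowest in the same one. The highest late coccyx level was 5.32 times the lowest for the median member (highest 19.6), against 2.10 times for the median of the 8351 rows. The groups are not matched for level, with medians of 9.81 CPM and 21.4 CPM in late coccyx, and low counts widen such a ratio. The part of level in this difference was not tested. In 32 of 40 members the lowest late coccyx level was that of stage 61 replicate 2, which was lowest for 35.6% of the 8351 rows. Replicate 1 exceeded replicate 2 of stage 61 in 34 members, with a median log2 ratio of 1.53, against 51.0% of the 8351 rows and a median of 0.023. At stage 65, replicate 2 exceeded replicate 1 in 33 members, with a median log2 ratio of 0.92, against 54.3% of the 8351 rows and a median of 0.065.

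The stage 61 replicate 2 coccyx library was the deepest of the coccyx libraries (7215011 counts) and had the lowest TMM factor among them, 0.725. Its 10 most abundant rows held 31.5% of its counts. It was also the late coccyx library whose gene ranks were closest to the hypochord library of the same stage and replicate, with a Spearman's rho of 0.921 across 15765 rows, which are not independent replicates. The other 3 late pairs had 0.843, 0.876 and 0.844. The hypochord library of stage 61 replicate 2 also had a low TMM factor, 0.608, the lowest of the 12 libraries. Its 10 most abundant rows held 33.7% of its counts. The part of these differences in the low level of the members was not tested.

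Profiles over the 6 coccyx libraries were alike for most members and unlike for a few. On log2(CPM + 1), the median Pearson's r over the 780 pairs of members was 0.47, against 0.0056 over pairs of the 8351 rows. Without stage 61 replicate 2 it was 0.37, against 0.0058. These values rest on 6 or 5 libraries that all genes share and are given as a description. The rule used the late ones among these libraries, and the 8351 rows are not matched to the members for level. Set against the mean of the other members, 30 of 40 had an r above 0.5 and 3 had a negative one, members 1, 25 and 27. Of the 8311 rows among the 8351 that are not members, 28.6% had an r above 0.5 with the mean of the members, and 46.7% a negative one. Member 25 had 0 counts in coccyx at stage 56, 1 at stage 58, 13 and 47 at stage 61 and 83 and 11 at stage 65. Member 27 had 2.48 to 10.1 CPM in late coccyx, against 23.1 CPM (120 counts) in stage 56 coccyx.

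The library in which a member was highest differed among the 40. Of the 6 coccyx libraries, the highest was stage 65 replicate 2 for 19 members, stage 58 for 7, stage 61 replicate 1 for 7, stage 56 for 3, stage 65 replicate 1 for 3 and stage 61 replicate 2 for 1. Among the 8351 rows, stage 65 replicate 2 was the highest for 14.3%. Member 22 had 4.40 to 21.3 CPM in late coccyx, against 54.1 CPM at stage 58, where its 331 counts were the most of any member. Members 15 and 30 each had 194 counts at stage 58 (31.7 CPM).

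In the libraries of stages 56 and 58, which entered the rule only through the mean CPM that set the 100 most abundant rows aside, the members were again counted almost wholly in coccyx. At stage 56, 39 of 40 members had a count in coccyx (median 21, highest 120), against 4 of 40 in hypochord, each with 1 count. At stage 58, 40 of 40 had a count in coccyx (median 63, highest 331), against 5 of 40 in hypochord, each with 1 count. Over both stages the members had 4429 counts in coccyx, against 9 in hypochord. Both coccyx libraries lay above both hypochord libraries for 39 of 40 members, against 31.6% of all 19784 rows and 35.1% of the 8351 rows. The exception was member 25, with 0 and 1 counts in coccyx and 0 and 0 in hypochord.

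**Figure D4:**
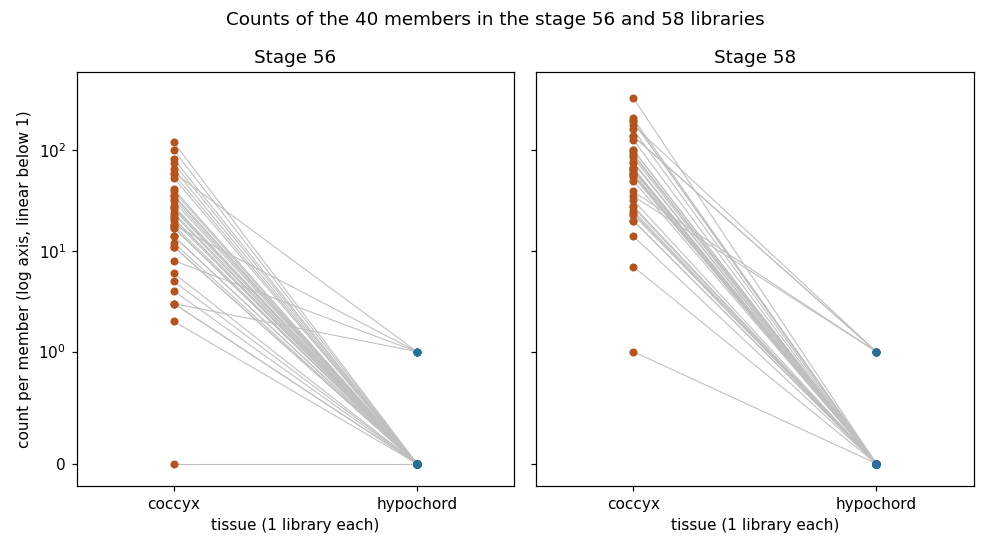
Each line joins the count of 1 member in coccyx (left) and hypochord (right) of the same stage, on a log axis that is linear below 1; each tissue has 1 library per stage. Coccyx counts reach 120 at stage 56 and 331 at stage 58, and no hypochord count exceeds 1.

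With edgeR's quasi-likelihood test and the stages taken as 1 early group of 2 libraries per tissue, 35 of 40 members were higher in coccyx at an adjusted p under 0.05 (0.0164 to 0.0487), against 23.1% of all 11729 genes tested. The share higher in hypochord was 0.639% of all genes and 0 of 40 members. All 40 members passed the filter on low counts, which their late coccyx counts alone could satisfy. The spread of this fit came also from late libraries that the rule used. In a fit of the 4 early libraries alone, 32 members passed the filter and 2 were called. This fit called 491 of 9954 genes tested as higher in coccyx. The main fit also leaves out any pairing of the tissues, and with a block for each assumed pair 0 members were called. The median log2 fold change was 7.91 for the members and 0.92 over all genes tested, or 8.10 and 1.32 by total counts without TMM factors. A fitted fold change against a group at 0 depends on the prior count. With the floor of 3 counts over both early hypochord libraries (0.277 CPM), 30 members at 0 with more than 3 coccyx counts were at least 5.74-fold to at least 116-fold higher in coccyx. For the 9 members with 1 hypochord count the ratio ran from 9.57 for member 34 (exact 95% counting interval 1.36 to 415) to 241 for member 12 (42.9 to 9567). The median over these 39 members was 36.4-fold, with the 30 at their bound.

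Of the 4 members given by identifier, all were higher in coccyx at stages 56 and 58. Member 1 had a log2 fold change of 8.24 ± 1.81 (SE, edgeR adjusted p = 0.0196) and was at least 30.3-fold higher. Member 2 had 9.02 ± 2.03 (edgeR adjusted p = 0.0208) and was at least 50.7-fold higher. Member 8 had 8.18 (edgeR adjusted p = 0.0354) and was at least 28.7-fold higher, and member 10 had 8.40 (edgeR adjusted p = 0.0309) and was at least 33.8-fold higher. Among the 5 members that missed the threshold, member 24 had 3 and 25 counts in coccyx at stages 56 and 58, member 34 had 3 and 7, member 36 had 3 and 35, member 40 had 4 and 14, and member 25 had 0 and 1. Their edgeR adjusted p ran from 0.0524 to 0.541.

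The early calls changed when a block for the pairs was added and when single libraries were left out. With a block for each pair of same-numbered libraries of 1 stage, edgeR called 0 of 40 members (lowest adjusted p = 0.0552, 36 with an unadjusted p under 0.05) and 1.41% of all genes as higher in coccyx. Without the block, DESeq2 called 37 members, and 3561 of all 11729 genes tested, as higher in coccyx. For limma voom these numbers were 38 and 3436. Fewer members were called without either early coccyx library, which left 1 coccyx library in the early group. Without the stage 58 coccyx library the median log2 fold change was 6.91 for the members and 0.87 over all genes tested. Without the stage 56 coccyx library it was 8.32 and 1.04. The direction was higher in coccyx for 40 of 40 members in the blocked fit, against 75.4% of all genes tested. The median log2 fold change was 7.88 for the members and 2.01 over all genes, against 7.91 and 0.92 without the block. The blocked fit had 3 residual degrees of freedom, against 6 in the main fit. The part of this difference in the lost calls was not tested. The early hypochord libraries also missed many genes that are not members: the stage 56 library had no count for 25.1% and the stage 58 library for 22.8% of the 8351 rows, and 12.2% had none in either, against 31 of 40 members. The part of this low number of detected genes in the members' early difference was not tested.

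Within coccyx, most members were higher in the stage 58 library than in the stage 56 library. With 1 library per stage there is no test. Stage 56 is replicate 1 and stage 58 is replicate 2, so stage and replicate cannot be told apart. Between replicates of the same stage, the members' median log2 ratio was 1.53 at stage 61 (replicate 1 over 2) and 0.92 at stage 65 (replicate 2 over 1). The stage 58 library exceeded the stage 56 library for 35 of 40 members, with a median log2 ratio of 1.48 (on counts + 0.5 scaled by TMM), against 52.1% of the 8351 rows and a median of 0.078. The late coccyx mean exceeded the mean of stages 56 and 58 for 26 members and was below it for 14. The median log2 ratio was 0.38, against -0.047 over the 8351 rows, whose late counts were also held to the minimum. In 2 of 40 members all 4 late coccyx libraries lay above both early ones, members 25 and 34. This held for 3.98% of all rows and 7.01% of the 8351 rows. In 0 members did all 4 lie below, against 5.53% of all rows and 6.92% of the 8351 rows.

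Between stages 65 and 61 of coccyx no member passed the test. With edgeR, 0 of 11729 genes were called (0%), with 178 at an unadjusted p under 0.05 and none of these a member. DESeq2 called 42 genes and limma voom 0, and neither called a member. The log2 fold change of stage 65 over stage 61 was positive for 35 of 40 members, with a median of 0.70, against 54.4% of all genes and a median of 0.061. The rule used these same coccyx libraries and held the members, but not all genes, to a minimum count in them. By total counts without TMM factors the medians were 1.11 and 0.56. Both stage 65 libraries lay above both stage 61 libraries for 12 members, against 13.2% of all rows and 18.8% of the 8351 rows. Both lay below for 1 member, member 1, against 9.21% of all rows.

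The largest difference was that of member 1, with 19.7 and 4.82 CPM at stage 65 and 63.2 and 94.4 CPM at stage 61. Its log2 fold change was -2.68 ± 1.18 (SE, edgeR adjusted p = 1). Member 2 had 0.13 ± 1.24, member 8 had -0.66 ± 1.41 and member 10 had -0.52 ± 1.37 on the same scale. The highest fold change was that of member 23, 1.95, with 3.22 and 23.5 CPM at stage 65 and 4.93 and 1.91 CPM at stage 61, so its stages overlapped.

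The excess of positive values rested on single libraries. Without stage 61 replicate 2, in which most members were lowest, 22 of 40 members were positive, with a median log2 fold change of 0.094. Without stage 65 replicate 2, in which 19 were highest, 22 were positive, with a median of 0.11. Without stage 61 replicate 1 the median was 1.87, and without stage 65 replicate 1 it was 1.17.

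**Figure D5:**
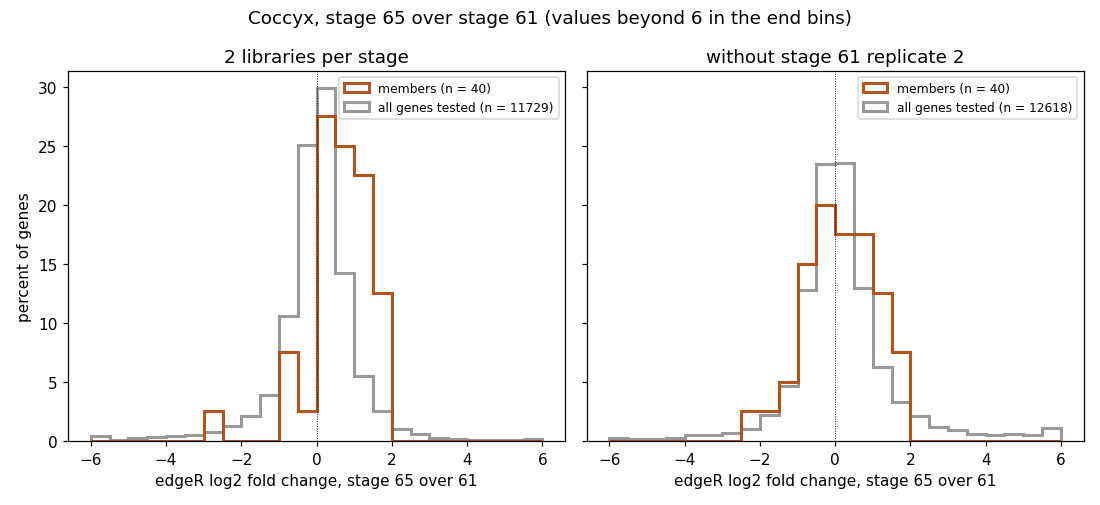
Histograms of the edgeR log2 fold change of coccyx stage 65 over stage 61, in percent of genes, for the 40 members and for all genes tested, with all libraries (left) and without stage 61 replicate 2 (right). The members' median is 0.70 on the left and 0.094 on the right, beside 0.061 and 0.057 for all genes. Members, but not all genes, were held by the rule to a minimum count in these libraries.

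The members could not be followed in replicate 3. Its identifiers run without a gap, and 11315 of them, 23 of the members among these, occur as strings in the tables of replicates 1 and 2 too. Over these strings, Spearman's rho of the counts was -0.0054 to 0.018 for the 72 pairs of 1 library from each set, against at least 0.789 between libraries of replicate 3 and at least 0.700 between libraries of replicates 1 and 2. A shared string was therefore not read as the same gene. The same rule on its own stage 61 and 65 libraries, 1 per tissue and stage, took 396 of 21321 rows (1.86%), and the reverse took 4. It asks for 0 counts in 2 hypochord libraries and not 4, and the stage 61 hypochord library of replicate 3 had no count for 16.1% of the 11071 rows with 10 or more counts in both coccyx libraries. At stage 56, 273 of the 396 rows had no count in hypochord (68.9%, against 14.1% of the 11071 rows), while 86 had 10 or more. Coccyx exceeded hypochord in CPM at stage 56 for 214 of the 396 rows, against 51.1% of the 11071 rows. Rows with 0 counts in both tissues are not among the higher ones, and they were not set apart. Since rows without a hypochord count were more frequent among the 396, these shares are not directly comparable. In coccyx itself, 135 of the 396 rows had no count at stage 56 and 173 had 10 or more. Shares of the 11071 rows were not computed for these coccyx counts or for the 86 rows, so they are a description only. In replicates 1 and 2, 39 of 40 members were higher in coccyx at both early stages, and the difference between the sets of tables was not tested.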

How the data were processed

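The authors deposited 1 table per library with raw counts per gene identifier, all of them whole numbers. FastQC, cutadapt 1.8.1 and HTSeq 0.13.5 are named per the submitters' processing notes. The sources used here name no aligner, build or annotation. Per the labels' protocols, complementary DNA was made from very small RNA amounts and amplified by PCR. Counts carry no molecular identifiers, so intervals and floors cover counting error only. Genes with near-identical copies or overlapping neighbours have uncertain counts.

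The members and tests were chosen with earlier results of these data known. The 12 libraries of replicates 1 and 2 entered 1 edgeR 4.0.16 fit in R 4.3.3: TMM, filterByExpr by group, robust quasi-likelihood with 6 groups (each tissue at stages 56 and 58 together, at 61 and at 65), 6 residual degrees of freedom, and Benjamini-Hochberg adjustment over 11729 genes with a threshold of 0.05. Its spread was estimated also from late libraries that the rule used. Standard errors are the fold change divided by the root of the F statistic, an approximation. DESeq2 1.42.0, limma 3.58.1, other filters and scalings, and leaving out libraries were alternatives. On simulated data the test recovered nearly all changed genes at a low preset spread, but almost none at the spread estimated from these libraries. A gene that missed the threshold is therefore not shown to be alike between groups. The simulation changed only a small set of genes by fixed folds. It does not give the power of the early tissue test, in which 2782 genes were called.

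Within a stage, coccyx and hypochord libraries carry the same replicate numbers in the labels. Over 11729 genes, coccyx and hypochord libraries of the same number deviated partly alike in the late stages (r of 0.33 for stage 61, 0.18 for stage 65). The late numbers were therefore taken to pair the tissues. For stages 56 and 58 the r of 0.28 compares the difference between these stages in each tissue. A stage difference shared by the tissues would also make it positive, so it cannot decide on pairing. Pairing at stages 56 and 58 was assumed and not tested. Replicate 3 was kept apart, since counts did not correlate across the sets of tables over the identifier strings they share. Without gene names, 4 identifiers are printed: the 2 members of highest mean level in late coccyx, and the 2 others with the lowest log2 fold change of stage 65 over stage 61.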

Additional observations from a re-analysis of the deposited data

How the results depend on the processing

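The number of members moved with the rule. It was 104 with a coccyx minimum of 5 counts, 12 with 20 counts, 21 with 2 CPM in place of 10 counts, and 78 with at most 1 count in each late hypochord library. Leaving out single late libraries gave 40 to 134 genes, the highest without stage 61 replicate 2 of coccyx, 77 without stage 65 replicate 2 of hypochord and 70 without stage 61 replicate 2 of hypochord. In the replicate 3 table the rule took 396 rows, 618 with a minimum of 5, 212 with 20, 2334 with stage 61 alone and 1120 with stage 65 alone.

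At stages 56 and 58, 2782 of 11729 genes were called between the tissues (35 members), and 182 with the replicate block (0 members). A fit of the 4 early libraries alone called 493 of 9954 genes tested. In that fit 32 members passed the filter and 2 were called. Leaving out single libraries gave 1363 to 4145 genes and 5 to 30 members, with 1515 genes without stage 56 coccyx. The remaining alternatives left both counts within 1.5 times. The cause was not tested.

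For stage 65 over stage 61 of coccyx, edgeR called 0 genes, 7 without a filter on low counts and DESeq2 42, with 0 members throughout. The replicate block called 0 genes; numbers did not pair the stages (r = -0.10), and a crossed pairing, chosen after seeing the data like the total-count scaling, also called 0. Leaving out single libraries gave 0 genes each. Signs of uncalled fold changes turned for ENSXETG00000030920 (-0.83 without stage 61 replicate 2, -0.37 without stage 65 replicate 2, at most 2.63 over the leave-outs), ENSXETG00000004192 (2.32 without stage 61 replicate 1, 0.093 with limma voom, lowest -1.86) and ENSXETG00000013830 (2.20 without stage 61 replicate 1, 0.30 with limma voom, lowest -1.46).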
